A study of Homo sapiens with 12 samples.

Results

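The E2F transcription factors and the pocket proteins that hold them in check were followed through 6 h of treatment with THZ531, which binds CDK12 and CDK13 covalently and blocks them. Both are kinases that phosphorylate the tail of RNA polymerase II during elongation. The 10 genes were E2F1 to E2F8, RB1 and RBL1, chosen by their symbols in the array annotation. RBL2, the other pocket protein gene, was not among them and is given with the partners. The members were read by 25 of the 45284 probe sets with 1 gene symbol, and were 10 of the 18244 genes tested. Where a gene had several probe sets, the one with the highest mean over the 12 arrays is given first.

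RNA came from Kelly and IMR-32, established human neuroblastoma cell lines, and was hybridised to 3′ expression arrays. Within each line, cells received DMSO, 100 nM THZ531 or 400 nM THZ531, which made 6 groups by line and dose, and each group held 2 arrays that the labels call biological duplicates. Each line is a single tumour-derived culture. Exact permutation of 2 arrays against 2 cannot give a two-sided p below 0.333, so all tests came from limma fitted over all genes, and p-values were adjusted by the Benjamini-Hochberg method with 0.05 as the threshold.

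E2F proteins bind DNA mostly as dimers with a DP protein and switch the genes of DNA replication on or off. E2F1, E2F2 and E2F3 are the activators, held by RB until cyclin D and cyclin E kinases phosphorylate it, while E2F4 and E2F5 repress mainly together with the RB relatives p107 (RBL1) and p130 (RBL2). E2F6, E2F7 and E2F8 repress without any pocket protein, E2F6 within a Polycomb complex and E2F7 and E2F8 without a DP partner. In neuroblastoma, copy gains of CCND1 and CDK4, which act upstream of RB, are recurrent.

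Intensities are linear, on the scale set by spiked-in ERCC RNA, and are comparable between arrays of 1 probe set, not between genes. The array medians ran from 55.9 to 131.8 and the mean log2 level of the 100 ERCC rows from 6.26 to 6.29, which the normalization itself sets. The 23 background control rows had medians between 17.8 and 20.1. All 9 sympathetic neuroblastoma markers measured were above these medians in all 12 arrays, as were 9 of 12 markers of other cell types, so the markers do not tell the cell types apart on this criterion. Replicates of 3 groups were taken as standing apart from each other. At 100 nM in IMR-32 the median gene was 0.50 below DMSO on the log2 scale in replicate 1 and 0.06 below it in replicate 2. In Kelly, replicate 2 at 100 nM and replicate 1 at 400 nM were the lower arrays. By this measure the IMR-32 DMSO arrays, at -0.12 and 0.12, were no closer to each other than the Kelly 400 nM arrays, at -0.34 and -0.16.

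At 400 nM, all 10 genes had both treated arrays below both DMSO arrays in each line. In Kelly cells the log2 changes ran from -2.69 (E2F5) to -0.46 (RBL1), with a median of -1.28 against -0.26 over all genes, and 0 of 10 passed the test. No gene passed in Kelly (0% of genes), where 1 of the 10, E2F5, had an unadjusted p under 0.05 (6.45% of all genes did so in this direction), and 48.8% of all genes had treated arrays entirely below the DMSO arrays. In IMR-32 cells the changes ran from -5.05 (E2F6) to -1.33 (RB1), with a median of -2.62 against -0.67 over all genes. There 9 of the 10 fell, RB1 being the exception, and 0 rose, against 39.0% of all genes called lower and 76.6% of all genes with non-overlapping arrays. By the leading probe sets, E2F6, E2F5, E2F7 and E2F3 had the lowest changes in that order, and RBL1 and RB1 the least negative. Of the E2F6 arrays at 400 nM, 1 (17.0) lay below the background control medians and 1 (23.0) just above the highest of them (20.1). The E2F6 change is therefore read as a lower bound on the size of the fall. The 95% intervals still overlapped widely, as those of E2F7 (-6.76 to -1.34) and RB1 (-2.45 to -0.22) did. Each gene has 1 spread shared by all 6 groups, so the split replicates at 100 nM widen these intervals. The log2 SD of E2F7 in IMR-32 was 3.07 at 100 nM, against 0.15 with DMSO and 0.24 at 400 nM. A fit on the arrays of the comparison alone called all 10 members lower in IMR-32, RB1 included, among 10021 genes, and 0 in Kelly. In RNA from whole cultures, fewer cells that carry a transcript and less of it per cell cannot be told apart.

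With any 1 array of IMR-32 at 400 nM or DMSO left out, the member median lay between -2.758 and -2.475, against -2.616 with all arrays. All 9 calls in IMR-32 nevertheless rested on both replicates of both groups. They ended when 400 nM replicate 1, 400 nM replicate 2, DMSO replicate 1 or DMSO replicate 2 was left out, with smallest adjusted p-values among the 10 genes of 0.0821, 0.108, 0.058 and 0.135 in that order. The same held for all genes and every pathway list: in each of these 4 settings 0 of 18244 genes passed, against 7124 lower with all arrays.

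**Figure D1:**
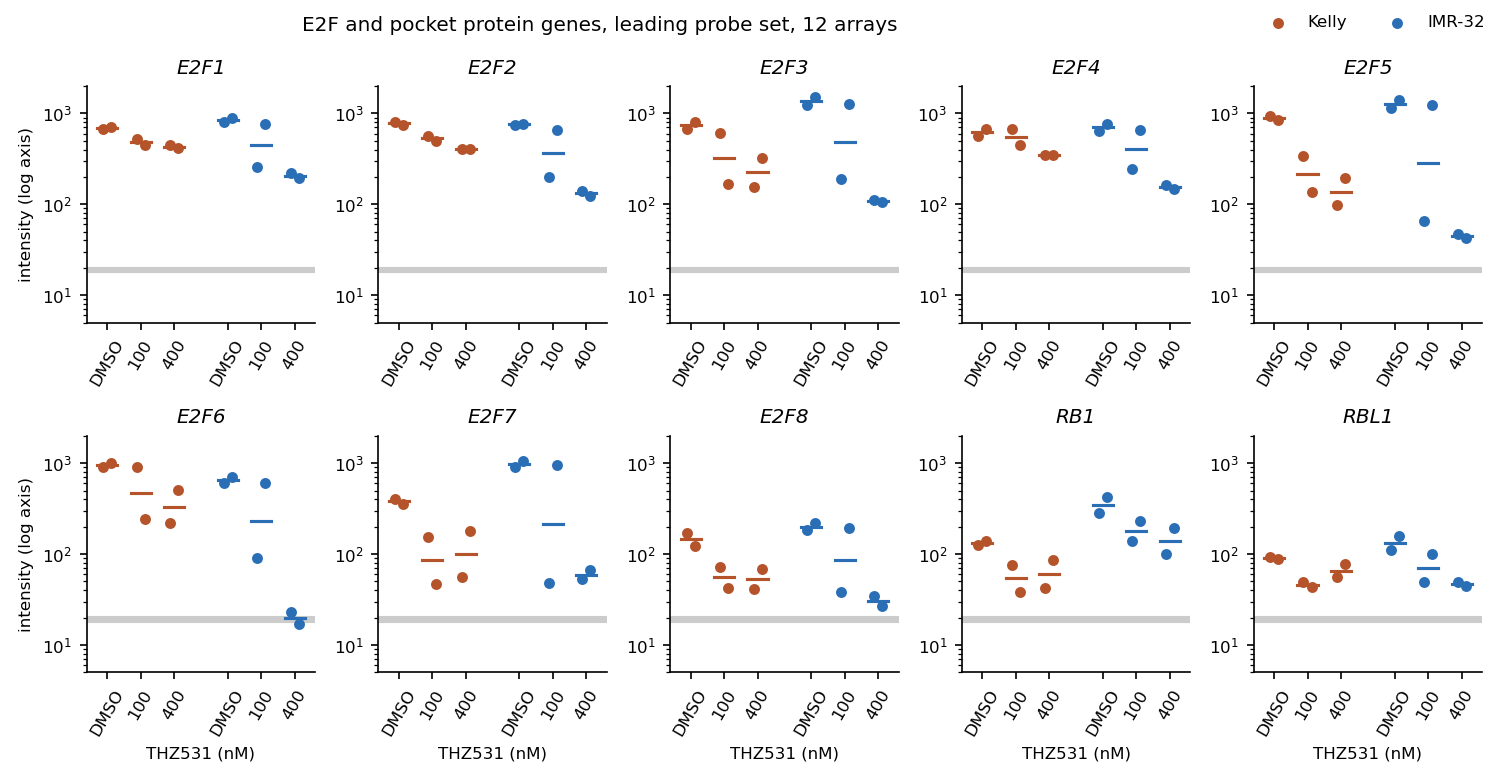
Intensity (log axis) of the leading probe set of each gene in the 12 arrays, by dose of THZ531, with Kelly on the left and IMR-32 on the right of each panel. Points are arrays (replicate 1 left, replicate 2 right), bars are group geometric means and the grey band is the range of the background control medians (17.8 to 20.1). Only E2F6 in replicate 2 at 400 nM in IMR-32 lay as low as this band.

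The sequences just upstream of the transcription starts are shown because several of these genes are themselves known E2F targets. The RefSeq windows of assembly GRCh38.p14, from 250 bases before to 50 bases after the start, held 8 of the 10 genes, without E2F5 and E2F8. They were searched on both strands for 2 forms of the E2F core, TTTCGCG and TTTGGCG, which do not overlap each other here. Other forms of the E2F site were not searched, so a window with neither of these cores may still hold one. The RB1 window lay 172.7 kb inside the gene and was set aside. Of 35116 windows of this length, 3.19% held either core (1.32% TTTCGCG and 1.92% TTTGGCG) and 0.105% held 2 or more. E2F1, E2F2 and RBL1 each held 1 copy of both cores, and E2F3 held TTTCGCG at its upstream start. The E2F4, E2F6 and E2F7 windows and the downstream E2F3 window held neither. The last 100 bases before the start of the genes with a core, and of E2F6, whose leading probe set had the largest change, are given 5′ to 3′ with the cores in capitals.
E2F1 (chr20:33686386-33686485, minus strand): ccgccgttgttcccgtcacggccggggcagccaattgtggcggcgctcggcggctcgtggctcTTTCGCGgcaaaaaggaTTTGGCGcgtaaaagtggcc
E2F2 (chr1:23531234-23531333, minus strand): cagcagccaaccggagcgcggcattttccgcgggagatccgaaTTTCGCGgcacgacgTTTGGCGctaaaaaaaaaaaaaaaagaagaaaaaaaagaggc
E2F3 (chr6:20401779-20401878, plus strand): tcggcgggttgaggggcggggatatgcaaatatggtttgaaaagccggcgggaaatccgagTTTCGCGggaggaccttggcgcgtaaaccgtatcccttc
RBL1 (chr20:37095998-37096097, minus strand): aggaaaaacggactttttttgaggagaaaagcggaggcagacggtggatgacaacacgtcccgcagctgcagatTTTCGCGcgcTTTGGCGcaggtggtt
E2F6 (chr2:11466162-11466261, minus strand): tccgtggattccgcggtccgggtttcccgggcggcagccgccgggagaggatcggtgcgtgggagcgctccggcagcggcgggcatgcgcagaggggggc
The cores lay at -37 and -20 in E2F1, at -57 and -42 in E2F2, at -26 and -16 in RBL1 and at -39 in E2F3, counted from the start to the first base of the core. In IMR-32 at 400 nM, the genes with a searched core had log2 changes of -2.04 (E2F1), -2.52 (E2F2), -3.66 (E2F3) and -1.50 (RBL1). Those with neither searched core had -2.18 (E2F4), -5.05 (E2F6) and -4.05 (E2F7), so the ranges overlapped.

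E2F1 (chr20:33675477-33686385, GRCh38.p14), the activator that also drives apoptosis genes, had Kelly intensities of 669.9 and 714 with DMSO, 518 and 444 with 100 nM, and 444 and 411 with 400 nM. The IMR-32 intensities were 811 and 886 under DMSO, then 259.9 and 766 at 100 nM, then 219 and 194 at 400 nM. Both treated groups lay below DMSO in both lines, and at 100 nM in IMR-32 only replicate 1 was far below it. At 400 nM the log2 change was -0.69 ± 0.42 in Kelly (adjusted p = 0.505; errors are SE from a spread shared by all 6 groups, 2 arrays per group) and -2.04 ± 0.42 in IMR-32 (adjusted p = 0.0174), where 24.3% of the DMSO level was left.

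E2F2 (chr1:23505212-23531233), the second activator, is like E2F1 released from RB at the G1/S transition. In Kelly its intensities were 808 and 742 under DMSO, then 565 and 502 at 100 nM, then 404 and 405 at 400 nM. For IMR-32 the values were 753 and 762 with DMSO, 199.97 and 656 with 100 nM, and 141 and 123 with 400 nM. At 400 nM the log2 change was -0.94 ± 0.45 in Kelly (adjusted p = 0.503) and -2.52 ± 0.45 in IMR-32 (adjusted p = 0.0174). A second E2F2 probe set changed by -1.09 ± 0.24 in IMR-32, less than the leading one.

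E2F3 (chr6:20401879-20493714), the activator with the longest gene among the E2Fs at 91.8 kb, split by replicate in Kelly. Its intensities there were 678 and 811 with DMSO, 616 and 169 with 100 nM, and 155 and 324 with 400 nM, so the 2 doses overlapped. In IMR-32 they were 1246 and 1507 under DMSO, then 188 and 1264 at 100 nM, then 110.2 and 106 at 400 nM, and replicate 2 at 100 nM lay within the DMSO range. After 400 nM, log2 changes stood at -1.72 ± 0.85 in Kelly (adjusted p = 0.503) and -3.66 ± 0.85 in IMR-32 (adjusted p = 0.018), which ranked 187 from the lowest of the 18244 genes. Its 3 probe sets changed by -3.74 to -3.30 in IMR-32.

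E2F4 (chr16:67192155-67198918), the most broadly used repressor E2F and the shortest gene of the family at 6.76 kb, had the least negative change of the family at 100 nM in Kelly. Its Kelly intensities were 565 and 677 under DMSO, then 678 and 447 at 100 nM, then 348 and 352 at 400 nM, so only the higher dose lay below DMSO. The IMR-32 intensities were 638 and 773 with DMSO, 246 and 660.2 with 100 nM, and 162 and 148 with 400 nM. The log2 change at 400 nM was -0.82 ± 0.42 in Kelly (adjusted p = 0.503) and -2.18 ± 0.42 in IMR-32 (adjusted p = 0.0174), close to that of E2F1. A second probe set changed by -1.88 in IMR-32.

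E2F5, on chromosome 8, the other repressor that works with p107 and p130, had the lowest change of all 18244 genes in Kelly at 400 nM. Its Kelly intensities were 932 and 847 with DMSO, 338 and 138 with 100 nM, and 98.6 and 193 with 400 nM, with both doses well below DMSO in every array. For IMR-32 the values were 1133 and 1408 under DMSO, then 65.7 and 1242 at 100 nM, then 46.9 and 42.3 at 400 nM, with replicate 2 at 100 nM inside the DMSO range. The log2 change at 400 nM in Kelly was -2.69 ± 1.10, 6.44-fold lower and not past the test (adjusted p = 0.503). In IMR-32 it was -4.83 ± 1.10 (adjusted p = 0.0177), which ranked 9 from the lowest of all genes, with 3.53% of the DMSO level left. The gene had 1 probe set, so no second probe set stood beside these values.

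E2F6 (chr2:11444375-11466161), the repressor that recruits a Polycomb complex, had the largest difference of the family between the lines, though it did not pass. Its Kelly intensities were 909 and 1010.3 under DMSO, then 919 and 244 at 100 nM, then 219 and 509 at 400 nM. In IMR-32 they were 607 and 703 with DMSO, 90.6 and 599 with 100 nM, and 23.0 and 17.0 with 400 nM. The second 400 nM array lay below the background control medians and the first just above them. At 400 nM the log2 change was -1.52 ± 0.87 in Kelly (adjusted p = 0.503) and -5.05 ± 0.87 in IMR-32 (adjusted p = 0.0174). With each 400 nM array set no lower than its own background median, the IMR-32 change of E2F6 was -5.00, still the lowest of the family. All 5 E2F6 probe sets passed there, each with 1 or both 400 nM arrays at or below the background medians, and in Kelly they lay between -1.68 and -1.22. In IMR-32 the others were at -4.27, -4.17, -3.97 and -2.51, less negative than E2F5 at -4.83. The first place in the family thus rests on the leading probe set. The leading probe set is of the type that may bind related transcripts, and RefSeq lists 4 E2F6 pseudogenes. Whether these added to the signal was not tested.

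E2F7 (chr12:77021251-77065569) is an atypical repressor induced by E2F1 and acting back on it. By the leading probe sets it had the lowest change of the family at 100 nM in both lines. Its values there, -2.15 in Kelly and -2.20 in IMR-32, were close to those of E2F5, -2.04 and -2.145. Its Kelly intensities were 406 and 359 with DMSO, 155 and 47.4 with 100 nM, and 55.7 and 179.9 with 400 nM, so the doses overlapped and both lay below DMSO. The IMR-32 intensities were 914 and 1060.4 under DMSO, then 47.8 and 965 at 100 nM, then 53.0 and 66.8 at 400 nM, where replicate 1 at 100 nM was below both 400 nM arrays. After 400 nM, log2 changes stood at -1.93 ± 1.20 in Kelly (adjusted p = 0.508) and -4.05 ± 1.20 in IMR-32 (adjusted p = 0.0293). A second E2F7 probe set was at -0.10 in Kelly and at -1.23 in IMR-32 at 400 nM, and at -0.38 and -0.54 at 100 nM.

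E2F8 (chr11:19224063-19241655), the other atypical repressor, acts with E2F7 at the promoter of E2F1. In Kelly its intensities were 171 and 124 under DMSO, then 72.0 and 42.9 at 100 nM, then 41.0 and 67.9 at 400 nM, both doses lying below DMSO. For IMR-32 the values were 186 and 218 with DMSO, 38.1 and 195 with 100 nM, and 34.9 and 27.0 with 400 nM, the last near the background rows. The log2 change at 400 nM was -1.46 ± 0.65 in Kelly (adjusted p = 0.503) and -2.71 ± 0.65 in IMR-32 (adjusted p = 0.0186). All 3 probe sets passed in IMR-32, and the other 2 had both 400 nM arrays below the background medians, so their changes are not compared with that of the leading one.

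RB1 (chr13:48303751-48481890), which encodes the retinoblastoma protein and spans 178 kb, was the member that did not pass in IMR-32. Its Kelly intensities were 125 and 138 with DMSO, 76.5 and 38.5 with 100 nM, and 42.8 and 86.7 with 400 nM. In IMR-32 they were 287 and 425 under DMSO, then 141 and 229 at 100 nM, then 99.6 and 193 at 400 nM, where the treated groups overlapped each other and not DMSO. At 400 nM the log2 change was -1.11 ± 0.49 in Kelly (adjusted p = 0.503) and -1.33 ± 0.49 in IMR-32 (adjusted p = 0.0582). Of its 3 probe sets 1 passed when each was tested separately, at -1.46 ± 0.47 (adjusted p = 0.0397). The sign of the RB1 change in IMR-32 turned under quantile normalization (0.15).

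RBL1 (chr20:36996349-37095997), which encodes p107, had Kelly intensities of 92.5 and 87.6 under DMSO, then 49.5 and 43.4 at 100 nM, then 55.5 and 77.0 at 400 nM. In Kelly both 400 nM arrays lay above both 100 nM arrays, a step of 0.50 ± 0.35 that did not pass. How many of all genes had such a step was not counted. In IMR-32 the intensities were 112 and 159 with DMSO, 49.1 and 101 with 100 nM, and 50.0 and 44.1 with 400 nM. After 400 nM, log2 changes stood at -0.46 ± 0.35 in Kelly (adjusted p = 0.554) and -1.50 ± 0.35 in IMR-32 (adjusted p = 0.018), and its 3 probe sets in IMR-32 lay between -1.65 and -1.50. Of the 25 probe sets of the family, 23 passed as lower in IMR-32 at 400 nM, against 36.6% of the 45284 probe sets with 1 gene symbol.

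**Figure D2:**
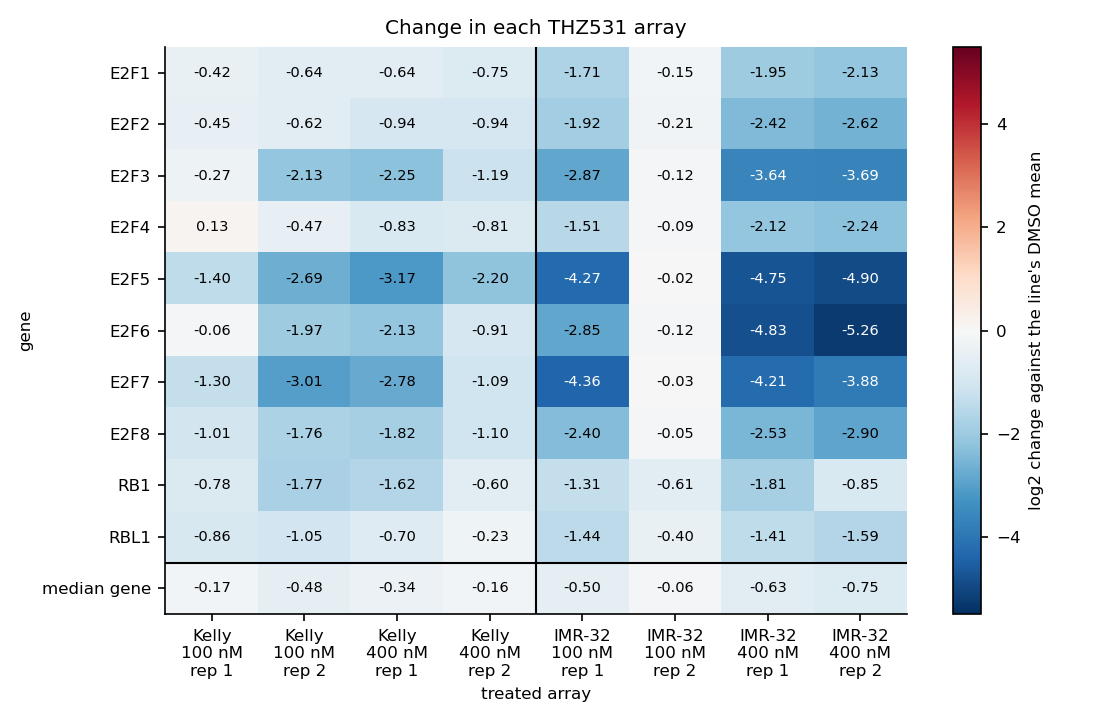
Log2 change of each gene in each of the 8 treated arrays against the mean of the 2 DMSO arrays of its line (colour and printed value), with the median of all 18244 genes in the bottom row. Replicate 1 of IMR-32 at 100 nM resembled the 400 nM arrays, with changes of -4.36 (E2F7) to -1.31 (RB1), while replicate 2 stayed between -0.61 (RB1) and -0.02 (E2F5).

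At 100 nM the group means averaged over that split. In Kelly, 0 of 10 members passed (0% of genes), with log2 changes of -2.15 (E2F7) to -0.17 (E2F4) and adjusted p-values of 0.426 to 0.833. RB1 and RBL1 were under 0.05 before adjustment, as were 9.94% of all genes in this direction, and 8 of 10 members did not overlap DMSO against 53.6% of all genes. In IMR-32 at 100 nM, 0 of 10 passed (0% of genes), with changes of -2.20 (E2F7) to -0.80 (E2F4) and an adjusted p of 0.465 for each. E2F2 and RBL1 were under 0.05 before adjustment, against 3.96% of all genes, and 5 of 10 members did not overlap, against 27.0% of all genes.

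The count at 100 nM in IMR-32 depended on 1 array. In IMR-32, the median log2 change of the members was -2.16 in replicate 1 and -0.12 in replicate 2. The median gene of these arrays stood at -0.50 and -0.06. Without replicate 2, 9 of 10 members passed as lower, among 5020 genes, with replicate 1 assumed to vary like the other groups. In Kelly, the member median was -0.62 in replicate 1 and -1.76 in replicate 2 at 100 nM, and -1.72 and -0.925 at 400 nM. The median gene of the same Kelly arrays stood at -0.17 and -0.48 at 100 nM and at -0.34 and -0.16 at 400 nM. The replicate with the lower member median was thus also the one with the lower median gene. Whether exposure, RNA quality or handling differed between those duplicates was not tested.

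The step between the doses was tested directly. In Kelly, 0 of 10 members passed (0% of genes, all adjusted p = 1; 0 had an unadjusted p under 0.05), with changes from 100 to 400 nM of -0.65 (E2F4) to 0.50 (RBL1). In IMR-32, 0 of 10 passed (0.00548% of genes, 1 gene), with 7 members lower at an unadjusted p under 0.05, against 19.5% of all genes. E2F6 had the lowest change of the family in that step, at -3.56 ± 0.87 (adjusted p = 0.188). Of its 400 nM arrays, 1 was below the background medians and the other just above them. Without replicate 1 at 100 nM, 9 members passed in this step, among 5956 genes lower.

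The lines were compared by the difference of the 400 nM effect, Kelly minus IMR-32, for which a positive value means a smaller fall in Kelly. All 10 members were positive, from 0.22 ± 0.70 (RB1) to 3.53 ± 1.23 (E2F6), with a median of 1.47 against 0.49 over all genes. None passed in limma (0% of genes, adjusted p of 0.449 to 0.884), and 4 members, E2F1, E2F2, E2F4 and E2F6, were under 0.05 before adjustment, against 10.3% of all genes in this direction. E2F6 had the smallest p of the 4, with a 95% interval of 0.74 to 6.31. With a fit on the 8 arrays of this comparison alone, 6 of 10 passed, all with a smaller fall in Kelly, among 2072 genes called in this direction. The interval for RB1 ran from -1.35 to 1.80, and its sign turned under median centring (-0.39) and quantile normalization (-0.84).

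**Figure D3:**
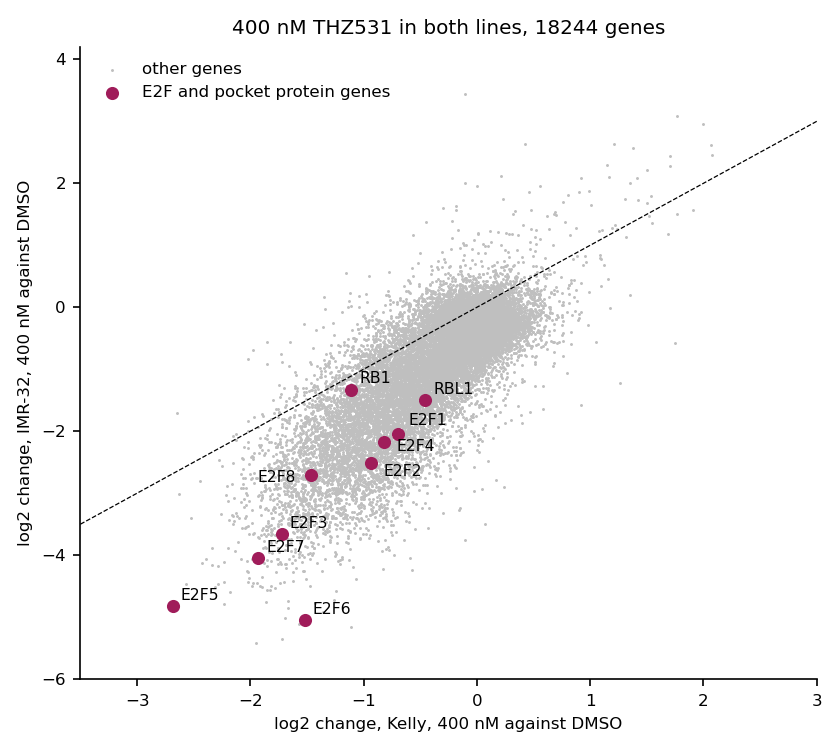
Log2 change at 400 nM against DMSO in Kelly (x axis) and IMR-32 (y axis) for 18244 genes (grey) and the 10 E2F and pocket protein genes (purple), with the line of equal change dashed. All 10 lie below the dashed line, RB1 nearest to it at -1.11 and -1.33, and E2F5 is the lowest of all genes on the x axis at -2.69.

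The untreated lines were set against each other under DMSO. In Kelly relative to IMR-32, 0 of 10 members passed (5.00% of genes did, in either direction), with log2 differences of -1.41 (RB1) to 0.55 (E2F6). RB1 had 125 and 138 in Kelly against 287 and 425 in IMR-32 (-1.41 ± 0.49, adjusted p = 0.182), and it alone was under 0.05 before adjustment, against 9.93% of all genes lower in Kelly. E2F7 had 406 and 359 in Kelly against 914 and 1060.4 in IMR-32 (-1.37 ± 1.20, adjusted p = 0.707). E2F6 was the one member with both Kelly arrays above both IMR-32 arrays (20.9% of all genes), and 7 members had both below (37.8% of all genes). A fit on these 4 arrays alone called 3 members lower in Kelly, among 3360 genes, since the spread of the treated replicates no longer entered it.

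The genes that act with the members were taken from lists of the pathway, and their counts in IMR-32 at 400 nM stand beside the 39.0% of all genes called lower and the median of -0.67. Median centring and quantile normalization moved that median to 0.37 and 0.18. They called 2880 and 2009 of the 18244 genes lower and 3414 and 1351 higher, which the list counts under these scalings stand beside. Among DP partners and RBL2, 1 of 4 fell, TFDP1, the main DP partner (-1.20 ± 0.42, adjusted p = 0.0497), and 0 of 4 passed under either scaling. RBL2 was at -1.45 ± 0.68 (adjusted p = 0.115). Among the MuvB core that joins E2F4 and p107 or p130 in the DREAM complex, with MYB-family genes and FOXM1, 5 of 8 fell, with a list median of -2.09, and 4 and 3 were lower under median centring and quantile normalization. LIN9 led them at -4.14 ± 0.88 (adjusted p = 0.0175), followed by MYBL1 (A-MYB), LIN37 and LIN54 at -2.69, -2.60 and -2.68. In Kelly at 400 nM 0 of 4 and 0 of 8 passed, with list medians of -0.74 and -0.97.

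Upstream of RB, 7 of the 10 kinases and cyclins fell in IMR-32 at 400 nM, with a list median of -1.11. Under median centring, and likewise under quantile normalization, 3 were lower and 1 was higher. CCNE1, cyclin E1, was at -2.40 ± 0.36 (adjusted p = 0.0174), CCNE2 at -3.07, CCNC at -3.49 and CCND3 at -1.58. Of the CDK inhibitors, which keep RB active, 1 of 6 fell, CDKN2A (-1.24 ± 0.37, adjusted p = 0.0295), and the list median was 0.08 against -0.67 over all genes. CDKN1C was at 0.28, CDKN2D at 0.285 and the p27 gene CDKN1B at -0.55, none of which passed. The p21 gene CDKN1A, at 0.04, was singled out after its value was seen. With median centring and with quantile normalization, 0 of the 6 inhibitors passed as lower and 4 and 2 passed as higher. Over all 18244 genes, 3414 and 1351 passed as higher in these settings. In Kelly at 400 nM 0 of 10 and 0 of 6 passed, with list medians of -0.70 and -0.06. The 6 inhibitors there ran from -1.65 (CDKN1B) to 0.68 (CDKN2D), with CDKN1A at -0.65 ± 0.23 (adjusted p = 0.503).

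Downstream, the G1/S and replication genes that E2F proteins control were lower as a list. In IMR-32 at 400 nM, 34 of 45 measured fell and 0 rose, against 39.0% of all genes called lower, with a list median of -1.65 against -0.67. CDC25A, the phosphatase that activates CDK2, was at -3.34 ± 0.47 (adjusted p = 0.0174), the replication licensing factor CDT1 at -2.33, the GINS subunit GINS3 at -2.27 and the uracil glycosylase UNG at -1.65. Under median centring 16 were lower and 0 higher, and under quantile normalization 14 were lower and 1 higher. In Kelly at 400 nM 0 of 45 passed and the list median was -0.79. The activators E2F1, E2F2 and E2F3 and the repressors E2F7 and E2F8 were thus lower in the same arrays as these targets.

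The E2F1 targets in apoptosis were nearer to the median gene. In IMR-32 at 400 nM, 5 of 9 fell, with a list median of -0.74. BCL2L11, which encodes the killer protein BIM, was at -1.64 ± 0.34 (adjusted p = 0.0174), the kinase gene MAP3K5 at -1.63, BID at -1.15 and the apoptosome gene APAF1 at -1.14. Under median centring 0 were lower and 2 higher, and under quantile normalization 1 was lower and 3 were higher. In Kelly 0 of 9 passed, with a list median of -0.28.

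Of a list of E2F6 partners, drawn mostly but not only from the Polycomb complex PRC1.6, 8 of 12 fell in IMR-32 at 400 nM. The list median was -1.90. Under median centring 5 were lower and 1 higher, and under quantile normalization 4 were lower and 1 higher. EPC1 was at -3.46 ± 0.73 (adjusted p = 0.0174), the MBT-domain protein L3MBTL2 at -2.16, and MAX, the dimer partner of MYC and MGA, at -1.65. WDR5 was at -1.63. In Kelly 0 of 12 passed, with a list median of -1.01. At 100 nM, 0 genes of any list passed in either line.

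**Figure D4:**
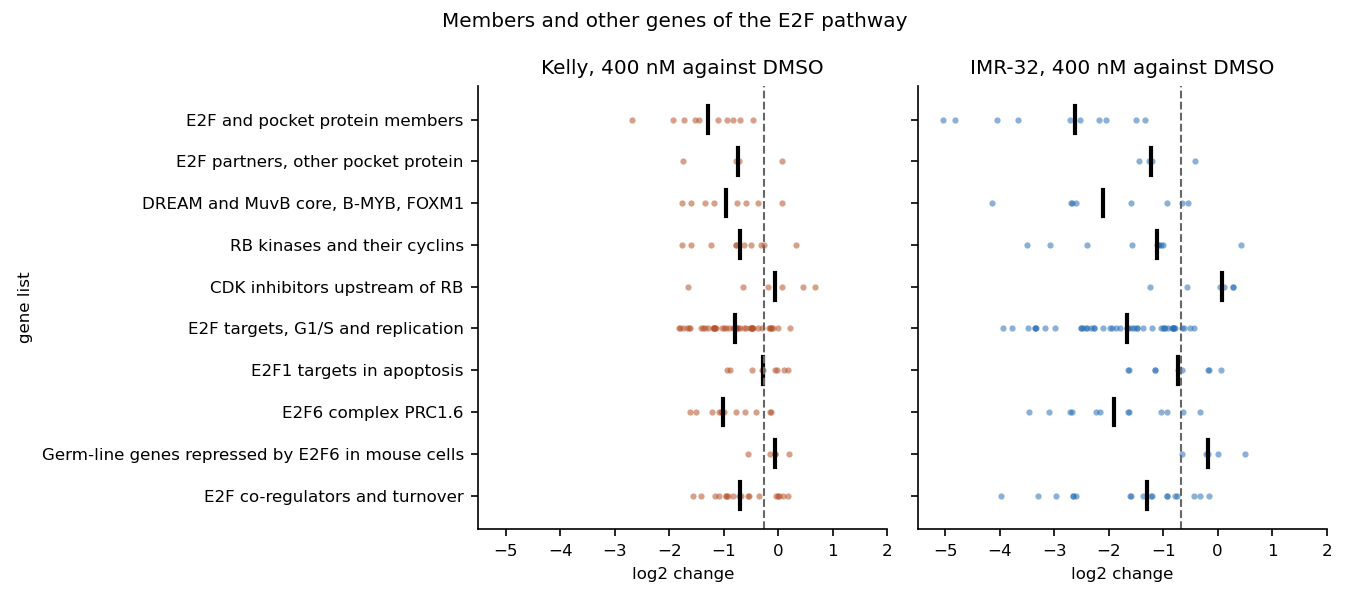
Log2 change at 400 nM against DMSO of the members and of each gene of the pathway lists in Kelly (left) and IMR-32 (right). Points are genes, black bars list medians and the dashed line the median of all genes (-0.26 in Kelly, -0.67 in IMR-32), and the members have the lowest list median in both lines, at -1.28 and -2.62.

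The genes most like the 3 members of largest spread over the 12 arrays were named by Pearson r of the log2 values among 12114 genes. E2F6 was followed most closely by PRPSAP1, MRPL22 and AURKA, E2F5 by DCP1B, METTL25B and ZNF623, and E2F7 by FCHSD2, MEF2A and BCL2, with r between 0.994 and 0.9971. These arrays share line and dose, so r describes the common course over the groups and has no test.

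Gene span, from the RefSeq annotation, did not order the members. The 10 genes ran from 6.76 kb (E2F4) to 178 kb (RB1), against a median of 25.7 kb over all genes. By the leading probe sets, E2F6, with 21.8 kb, had the largest change in IMR-32 at 400 nM. RB1 and RBL1, the longest at 178 and 99.6 kb, had the smallest. Across the 10 members the span and the log2 change gave a Spearman rho of 0.188 and a Pearson r of 0.117 with the log10 span, which are descriptions over 10 genes measured in the same arrays.

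**Figure D5:**
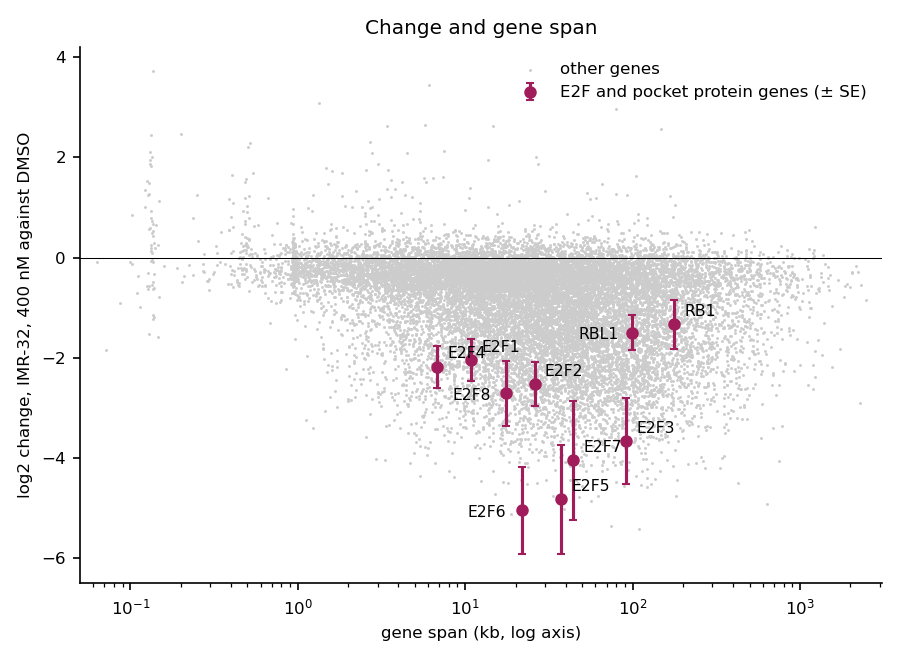
Log2 change in IMR-32 at 400 nM against DMSO by gene span (log axis) for all genes with a span (grey) and the 10 members (purple, ± SE of the fit). RB1 and RBL1, the members with the longest genes, sit highest at -1.33 and -1.50, and E2F6 (21.8 kb) lowest at -5.05.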

How the data were processed

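Total RNA of 2 neuroblastoma lines was measured on 12 PrimeView arrays, 2 for each of 6 groups, and groups came from the labels. Each of 49495 rows was deposited as linear intensity per array (0.893 to 33557). Per the submitters' processing notes, the authors used MAS5 and affy in R 3.1.3, and the methods state a loess fit to the ERCC spike-ins. Intensities were kept as deposited, so equal spike-in levels do not test the scaling, and were log2 transformed without a pseudocount. Of the rows, 45284 carried 1 gene symbol, 1333 several and 2878 none. The row with the highest mean stood for a gene.

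Group means were fitted over all 12 arrays (lmFit and eBayes, limma 3.58.1, R 4.3.3; labels read with jsonlite 2.0.0), with 6 residual degrees of freedom, and tested two-sided over 18244 genes. The duplicates' p-values measure only the spread between these arrays, and 2 arrays per group limit the precision. All 10 members are named, and of each pathway list at most 4 genes with the smallest p. The members and lists were chosen with earlier results of these data known. Promoter windows and spans came from RefSeq (GRCh38.p14). The lists hold 7 genes with no value here. Figures were drawn with matplotlib 3.10.9 and pandas 2.3.3. Alternatives covered scaling, probe set choice, a filter on dim genes, a pseudocount of 16, fit options, a replicate block and leaving out arrays.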

Additional observations from a re-analysis of the deposited data

How the results depend on the processing

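With 2 arrays per group, IMR-32 at 400 nM gave 9 members called, and this became 0, as did the calls over all genes, when any 1 of its 4 arrays was left out, and stayed at 6 to 10 in the other alternatives, with 8 under median centring and 6 under quantile normalization. Leaving out 1 array gave 0 to 9 members called for IMR-32 at 100 nM and 0 to 9 for 400 against 100 nM in IMR-32. Quantile normalization gave 1 in that step, among 67 genes lower. For IMR-32 at 400 nM, median centring and quantile normalization called 2880 and 2009 of all 18244 genes lower. Without replicate 2 of Kelly at 100 nM, of Kelly at 400 nM and of IMR-32 at 100 nM, which were picked after their values were known and leave 3 groups with 1 array, members called were 8 for Kelly at 400 nM, 10 for IMR-32 at 100 nM, 3 for Kelly at 100 nM (with 6095, 7899 and 725 genes lower), 1 and 5 for the dose step in IMR-32 and Kelly, 7 for the difference between lines and 3 between lines in DMSO. Without those 3 arrays, many genes outside the family also passed in both dose steps, in the difference and in DMSO. With 1 array in 3 groups, these member counts are not read as a result about the family. Member medians for the IMR-32 step, the Kelly step, the difference and DMSO were -0.448, -0.9, 1.377 and -0.489. Those of all genes were -0.187, -0.254, 0.387 and -0.107. A fit on the arrays of the comparison alone called 6 members for the difference, among 2072 genes higher, and 3 lower in DMSO, among 3360 genes.

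The signs that turned were of values that did not pass with all arrays as deposited. E2F4 in Kelly at 100 nM was 0.34 under median centring, 0.40 under quantile normalization and 0.13 without the 3 arrays, and -0.47 to 0.13 leaving out 1 array, and E2F1 there was 0.034 under quantile normalization. RB1 in the difference between lines was -0.39, -0.84 and -0.29 in the same 3 settings and -0.29 to 0.73 leaving out 1 array, and in IMR-32 at 400 nM it was 0.15 under quantile normalization, against -1.33. Between lines in DMSO, E2F4 was 0.036 under median centring and 0.12 under quantile normalization, and E2F2 was -0.03 to 0.093 leaving out 1 array. The cause was not tested.

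The labels do not say what a replicate number shares. Correlations of same-numbered deviations between groups were 0.159 to 0.273 within IMR-32 and -0.781 to 0.258 within Kelly, so the numbers were not taken as pairs. With a replicate block, and with a separate replicate block within each line, which was chosen after seeing the data, 9 members were called for IMR-32 at 400 nM and 0 in every other comparison.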

Other observations

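A list of E2F co-regulators and turnover genes was also measured, not all of which have E2F factors as their main targets. In IMR-32 at 400 nM, 13 of 18 genes of this list fell and 0 rose, against 39.0% of all genes called lower, with a list median of -1.30. FBXL5, an F-box protein of iron metabolism, was at -3.98 ± 0.85 (adjusted p = 0.0175), cyclin F (CCNF) at -3.30 ± 0.61, the acetyltransferase CREBBP at -2.66 ± 0.42 and the histone methyltransferase SUV39H1 at -2.65 ± 0.55 (each adjusted p = 0.0174). In Kelly at 400 nM 0 of 18 passed, with a list median of -0.71. Under median centring 6 were lower and 1 higher, and under quantile normalization 6 were lower and 0 higher. Over all 18244 genes, 2880 and 2009 were lower in these settings.

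E2F6 silences germ-line genes in mouse cells, and 5 of these were measured. In IMR-32 at 400 nM 0 of 5 passed, with a list median of -0.19, from -0.65 ± 0.24 (TUBA3C, adjusted p = 0.0584) to 0.50 ± 0.42 (SLC25A31, adjusted p = 0.361). In Kelly 0 of 5 passed. Under median centring 2 of the 5 were higher and under quantile normalization 1. Over all 18244 genes, 3414 and 1351 were higher in these settings.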
